A study of Mus musculus with 35 samples.

Results

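Ion channels of microglia were described from 7 of the 21236 genes measured: the potassium channel genes Kcnk13, Kcnk6, Kcna3, Kcnn4 and Kcnj2, and the transient receptor potential (TRP) channel genes Trpv2 and Trpm2. The genes were listed by symbol, matched to the deposited Ensembl identifiers through the GENCODE annotation of the mouse genome build GRCm38, and all 7 were found. Expression was measured by RNA-seq in 35 samples of sorted microglia from the prefrontal cortex (PFC), striatum and midbrain of 12 mice, 6 male and 6 female. There were 12 midbrain, 12 striatal and 11 PFC samples, since the PFC sample of male mouse 3 was lost during dissociation, which left 5 male PFC samples. The study asked whether microglial transcripts differ by brain region and by sex.

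Every group had the same genotype and drug. The mice were adults of 17 to 18 weeks carrying 1 copy each of Tmem119-2A-CreERT2 and Ai14(RCL-tdTomato)-D, and were given tamoxifen at 75 mg/kg in 5 daily injections, 10 to 21 days before tissue was taken. Tamoxifen releases a Cre recombinase expressed from the Tmem119 locus, which turns on the red reporter tdTomato, and red cells were collected by flow cytometry. The samples therefore represent cells that had expressed Tmem119, and no mouse without tamoxifen was compared. Tmem119 and P2ry12, which define microglia, averaged 3267 and 7169 CPM (counts scaled to the library total), and all 8 microglial markers examined were present in most samples. Their sums averaged 35980 ± 1430 CPM (SD) in midbrain, 39460 ± 2051 in striatum and 37680 ± 1811 in PFC. Of the 8, 3 passed the test for an effect of brain region described below, against 8.89% of all genes. In such bulk samples, fewer cells of a type and less RNA per cell cannot be told apart.

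Potassium channels let potassium leave the cell and so set the membrane voltage of microglia, on which calcium entry, process movement and cytokine release depend. Kcnk13 and Kcnk6 encode channels of the K2P family that leak potassium at rest, Kcnj2 an inward rectifier, Kcna3 a voltage-gated channel and Kcnn4 a channel opened by intracellular calcium. TRP channels conduct cations: Trpm2 is opened by ADP-ribose formed under oxidative stress, and Trpv2 is a calcium-permeable channel of macrophages. Potassium loss from the cell is a known trigger of the NLRP3 inflammasome.

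The 3 members with a main effect of brain region were Kcna3, Kcnj2 and Trpm2, and the 250 bases before their annotated start sites are shown because they are the members whose transcripts differed between regions. The windows are RefSeq sequence of build GRCm38.p6, written 5′ to 3′ on the strand of the gene, with capitals marking every copy of GAGGAA or of its reverse complement. GAGGAA is the core of the site bound by PU.1, a transcription factor that microglia need. The window of Kcna3 lies at chr3:107035912-107036161 on the plus strand, that of Kcnj2 at chr11:111065914-111066163 on the plus strand, and that of Trpm2 at chr10:77969873-77970122 on the minus strand, inside the span that GENCODE gives to Trpm2.
Kcna3: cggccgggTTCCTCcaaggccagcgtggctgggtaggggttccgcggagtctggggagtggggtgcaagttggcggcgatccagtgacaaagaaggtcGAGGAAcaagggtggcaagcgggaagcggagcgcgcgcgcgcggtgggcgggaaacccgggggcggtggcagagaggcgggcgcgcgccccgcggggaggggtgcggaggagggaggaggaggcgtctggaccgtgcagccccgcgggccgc
Kcnj2: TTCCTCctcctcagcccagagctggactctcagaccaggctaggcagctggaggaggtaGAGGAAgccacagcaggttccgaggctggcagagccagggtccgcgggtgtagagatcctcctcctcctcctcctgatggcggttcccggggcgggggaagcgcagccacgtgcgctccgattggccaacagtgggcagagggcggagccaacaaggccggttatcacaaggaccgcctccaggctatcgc
Trpm2: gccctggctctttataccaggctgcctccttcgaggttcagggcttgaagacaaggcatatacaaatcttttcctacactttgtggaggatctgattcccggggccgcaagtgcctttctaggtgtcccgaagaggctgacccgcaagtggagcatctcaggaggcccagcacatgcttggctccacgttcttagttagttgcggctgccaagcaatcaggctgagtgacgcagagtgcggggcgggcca

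The motifs searched on both strands were GAGGAA, then TGANTCA (bound by AP-1 factors), then the NF-kappa-B site GGG and TTCC with 3 bases between, and the MEF2 site CTA and TAG with 4 bases between. GAGGAA was found 2 times before Kcna3, beginning at bases -242 and -152, and 2 times before Kcnj2, beginning at bases -250 and -191, counted back from the start site. The window of Trpm2 held none of the motifs. Across 32851 windows of the same length before annotated starts of mouse genes, 23.3% held GAGGAA, 6.75% the AP-1 motif, 4.65% the NF-kappa-B motif and 3.2% the MEF2 motif. Among the other members, GAGGAA was also found before Kcnk13 and before 2 of the 3 start sites of Trpv2, the NF-kappa-B motif before the third of these, and neither before Kcnn4. G and C made up 74.4% of the bases before Kcna3, 65.6% before Kcnj2 and 56.8% before Trpm2, against a median of 52.4% over all windows. The matches describe the letters of these windows and no binding was measured. Promoter sequence was found for 6 of the 7 members, all but Kcnk6.

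Depth was high and even. Total counts ran from 37680501 to 54131421 per sample (median 47378508), and a gene with 3 counts would have 0.0561 to 0.0789 CPM, a floor that covers counting error only because the libraries carry no molecular identifiers. The lowest count of any member in any sample was 54, for Kcna3. Values below are CPM scaled with TMM factors, which correct for differences in library composition, and p-values come from edgeR's quasi-likelihood F-test over all genes.

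Levels were compared per kilobase of exon, so that genes of different length can be ranked. The length was that of all annotated exons of a gene merged. It was 12459 bases for Trpm2, 5115 for Kcnn4 and 1902 for Kcna3, and the ranking rests on these lengths. By this measure the leak channels were the most abundant members (the plot of level per kilobase). Kcnk13 averaged 52.5 ± 4.64 CPM per kilobase (SD, n = 35) and Kcnk6 36.2 ± 5.06, and Kcnk13 was higher in 35 of 35 samples. Trpv2 followed at 19.9 ± 2.47 CPM per kilobase, below Kcnk6 in every sample. These 3 genes gave 36.2%, 33.3% and 19.7% of the members' summed CPM.

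A wide gap separated them from the other members. Kcnj2 had 3.55 ± 1.32 CPM per kilobase, and its range over samples did not overlap that of Trpv2. Kcna3 had 2.35 ± 1.49 and Trpm2 1.75 ± 0.469 CPM per kilobase. Neighbours in this stretch were not separated in every sample, since Kcnj2 exceeded Kcna3 in 27 of 35 samples and Kcna3 exceeded Trpm2 in 17 of 35. Kcnn4 was the least abundant at 0.691 ± 0.210 CPM per kilobase, below Trpm2 in 35 of 35 samples. Among 21103 genes with a length, the members stood at percentile 95.7 (Kcnk13), 93.4 (Kcnk6), 88.5 (Trpv2), 65.9 (Kcnj2), 60.3 (Kcna3), 56.4 (Trpm2) and 45.7 (Kcnn4).

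**Figure D1:**
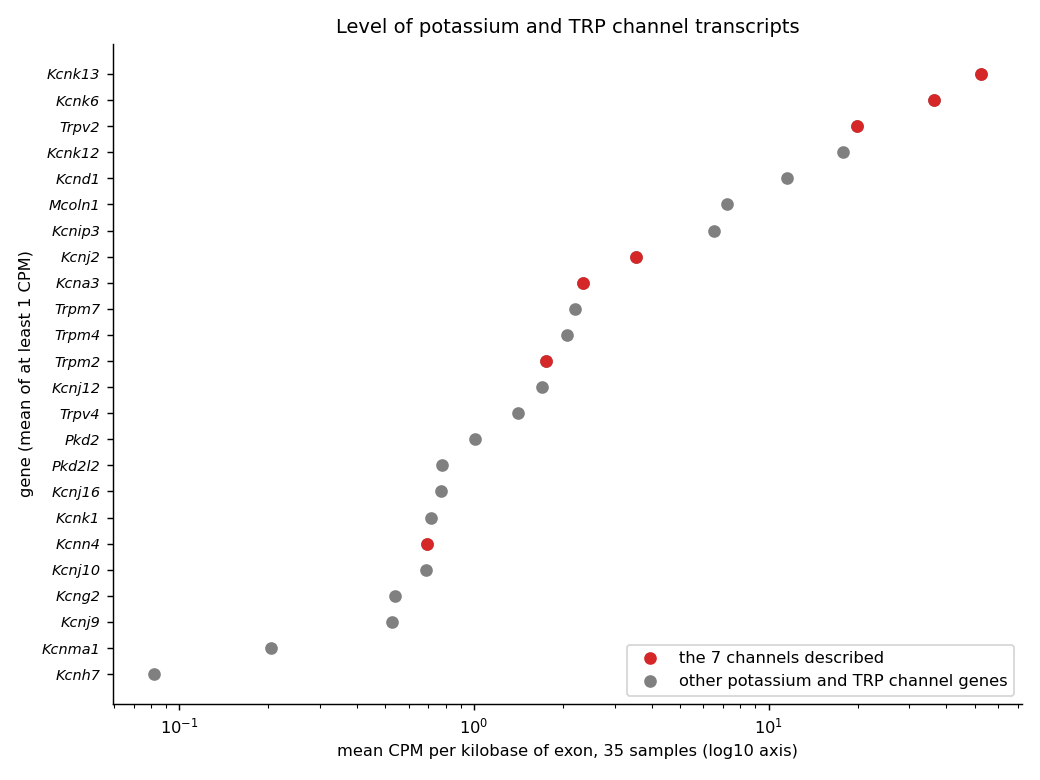
Mean CPM per kilobase of exon over 35 samples (log10 axis) for each potassium or TRP channel gene with a mean of at least 1 CPM, with the 7 members in red and other channel genes in grey. Kcnk13, Kcnk6 and Trpv2 occupy the top of the scale, and Kcnn4 lies near the bottom at 0.691.

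A main effect of brain region, at a Benjamini-Hochberg adjusted p under 0.05, was found for 3 of the 7 members: Kcna3, Kcnj2 and Trpm2. Of all genes, 8.89% passed this test, and 11.6% of genes with a mean of at least 1 CPM did. The abundant members Kcnk13, Kcnk6 and Trpv2 and the low Kcnn4 did not pass. Kcna3 and Kcnj2 were more highly expressed in midbrain, and Trpm2 was lowest in midbrain and highest in striatum. Pairs of regions were then compared where the region effect passed, at an unadjusted p under 0.05 and a fold change over 1.2, the rule of the study. PFC and striatum were both compared with the same midbrain samples, so those comparisons are not independent.

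Between PFC and midbrain, 3 members differed, against 5.99% of all genes, with Kcna3 and Kcnj2 lower in PFC (3.24% of genes were lower) and Trpm2 higher (2.75% were higher). Between striatum and midbrain the same 3 members differed, against 6.47% of all genes, again with Kcna3 and Kcnj2 lower in striatum (2.98% of genes) and Trpm2 higher (3.5%). Between striatum and PFC, Kcnj2 and Trpm2 were higher in striatum, against 3.14% of all genes called and 2.31% called higher. With Benjamini-Hochberg adjusted p-values in place of unadjusted ones, the comparison of striatum with PFC called 0 of the 7 members and 0.57% of all genes (2 members at an unadjusted p, and 2 by that rule with DESeq2).

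**Figure D2:**
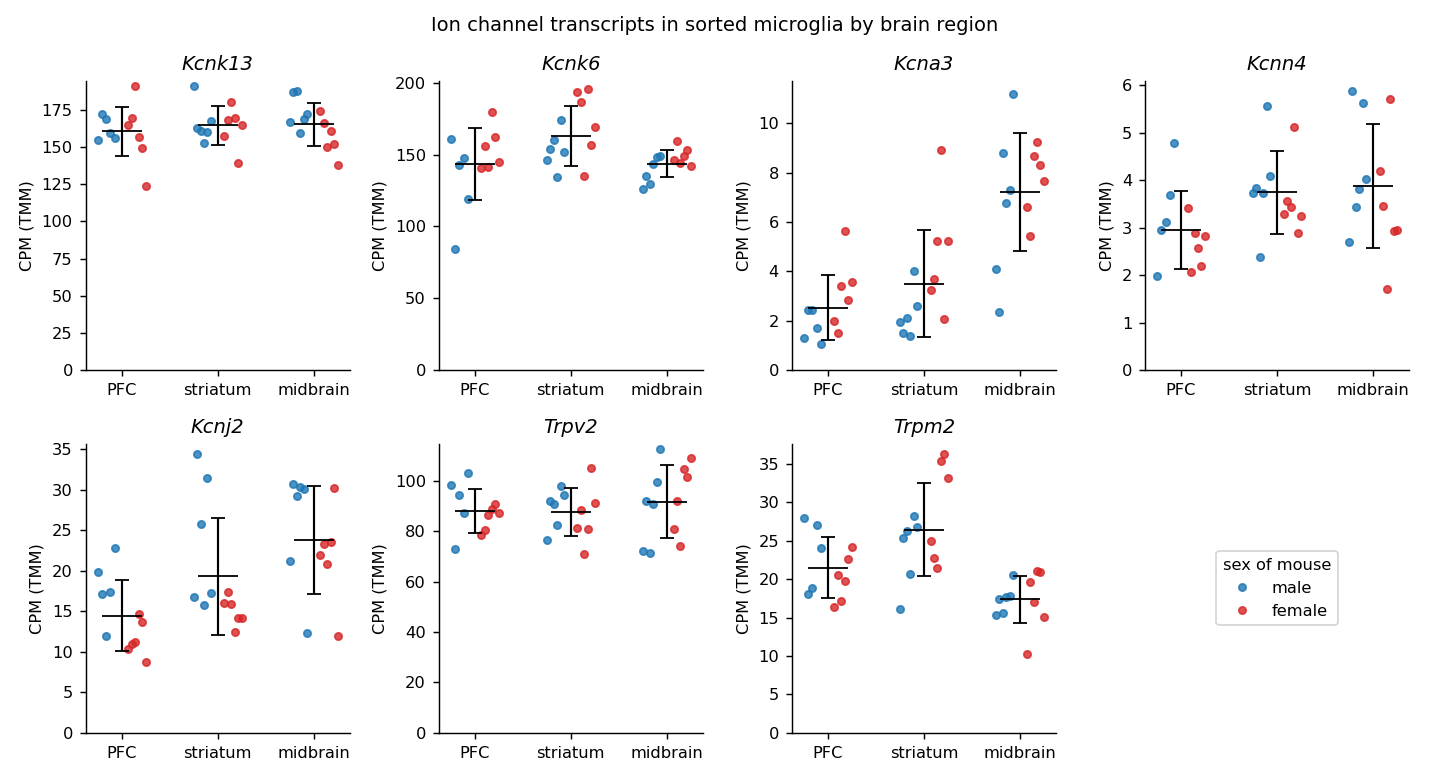
CPM of the 7 members in each sample (y axis from 0) by brain region, with males in blue and females in red, and horizontal lines and bars giving the mean ± SD of each region (n = 11 for PFC, 12 for striatum and midbrain). Kcna3 is highest in midbrain at a mean of 7.20 CPM, Trpm2 is highest in striatum at 26.5 CPM, and the regions overlap for every member.

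Kcna3 (ENSMUSG00000047959), at chr3:107036169-107038070 on the plus strand, showed the strongest regional difference. Its CPM in midbrain ran from 2.37 through a median of 7.48 to 11.2, in striatum from 1.40 through 2.93 to 8.91, and in PFC from 1.05 through 2.43 to 5.65. Midbrain values were the higher ones, but the ranges overlapped, with male mouse 3 low in midbrain and female mouse 8 high in striatum and PFC. Means were 7.20 ± 2.39 CPM (SD, n = 12) in midbrain, 3.502 ± 2.16 (n = 12) in striatum and 2.53 ± 1.32 (n = 11) in PFC.

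The region effect on Kcna3 had an adjusted p of 3.53e-05 (edgeR, Benjamini-Hochberg). PFC fell below midbrain with a log2 fold change of -1.61 (SE 0.256, adjusted p = 3.14e-05), and in 11 of 11 mice. Striatum fell below midbrain with a log2 fold change of -1.14 (SE 0.244, adjusted p = 0.0026), and in 12 of 12 mice. Within mice, the difference from midbrain to PFC ranged from -3.36 to -0.71 on the log2 scale and that from midbrain to striatum from -2.24 to -0.05.

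Striatal Kcna3 stood 0.47 above PFC on the log2 scale (SE 0.250, p = 0.0664, n = 12 and 11), which did not pass. With the mouse as a replicate block in place of sex, the same difference was 0.54 and passed (p = 0.0111, adjusted p = 0.144, n = 12 and 11, edgeR). In a limma-voom fit that took the mouse as a random term it was 0.51 (p = 0.0284, n = 12 and 11) and passed. It also passed when mouse 3, 5, 7 or 10 was left out (log2 fold changes of 0.53, 0.54, 0.58 and 0.54). The call thus depended on which mice were in the fit and on how they entered it.

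Kcna3 is also the main voltage-gated potassium channel of T cells. Of 8 markers of T and NK cells, 6 were measured. Cd3e and Cd3g were absent from the counts, from which the authors had removed genes of low expression. The receptor gene Il7r gave nearly all of the sum of the 6 (17.04 CPM on average). The sums ran from 14.7 to 23.0 CPM in midbrain, 7.29 to 24.3 in striatum and 11.3 to 29.2 in PFC, and Trbc2, Nkg7 and Klrb1c were at 0 in 22, 21 and 20 of the 35 samples. In the region test with edgeR, 0 of the 6 passed at an adjusted p under 0.05, and 0 at an unadjusted p under 0.05. Of all 21236 genes, 1888 and 4625 did. Of border macrophage markers 7 were measured, and of monocyte and neutrophil markers 6. In each of these lists 2 passed at an adjusted p under 0.05, against 8.89% of all genes. In each, 1 gene was called higher and 1 lower in PFC than in midbrain, against 2.75% and 3.24% of all genes. Their sums averaged 11.68 and 2.825 CPM in midbrain, 9.586 and 3.479 in striatum, and 12.85 and 6.834 in PFC. The highest sums were 40.5 CPM in midbrain and 25.11 in PFC. The part of these cells in the Kcna3 values was not tested. The antisense gene Gm27008 spans Kcna3 on the other strand with 0 shared exon bases, and the sources used here do not say whether strand was used in counting.

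Kcnj2 (ENSMUSG00000041695), at chr11:111066164-111076821 on the plus strand, was also lower outside the midbrain, by less. Its CPM in midbrain ran from 11.9 through a median of 23.5 to 30.7, in striatum from 12.4 through 16.5 to 34.4, and in PFC from 8.79 through 13.7 to 22.8. The highest striatal values came from males, led by mouse 3, and the lowest midbrain values came from mice 11 and 12, so the ranges overlapped widely. Means were 23.8 ± 6.69 CPM (SD, n = 12) in midbrain, 19.3 ± 7.18 (n = 12) in striatum and 14.4 ± 4.38 (n = 11) in PFC.

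The region effect on Kcnj2 had an adjusted p of 0.00467 (edgeR, Benjamini-Hochberg). PFC fell below midbrain with a log2 fold change of -0.73 (SE 0.155, adjusted p = 0.00156), and in 10 of 11 mice. The exception was male mouse 11, at 22.8 CPM in PFC and 12.3 in midbrain. Striatum differed from midbrain by -0.34 (SE 0.150, p = 0.0308, adjusted p = 0.186, n = 12 and 12), and was lower in 8 of 12 mice. This last call was lost when mouse 2, 4, 7, 8 or 10 was left out (log2 fold changes of -0.32, -0.33, -0.29, -0.29 and -0.26). Striatum exceeded PFC by 0.39 (SE 0.154, p = 0.0148, adjusted p = 0.271, n = 12 and 11), and in 8 of 11 mice. Fitted on mice 7 to 12 alone, the region effect did not pass (adjusted p = 0.265), with a log2 fold change from midbrain to PFC of -0.66, and on mice 1 to 6 alone it did (adjusted p = 0.0173, -0.81).

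Trpm2 (ENSMUSG00000009292), at chr10:77907722-77970563 on the minus strand, had another order, with the lowest values in midbrain. Its CPM in midbrain ran from 10.3 through a median of 17.6 to 21.1, in striatum from 16.1 through 25.8 to 36.3, and in PFC from 16.3 through 20.5 to 27.9. Females 8, 10 and 12 gave the 3 highest striatal values, the midbrain of female mouse 2 gave the lowest value of all, and neighbouring ranges overlapped. Means were 17.4 ± 3.09 CPM (SD, n = 12) in midbrain, 26.5 ± 6.09 (n = 12) in striatum and 21.5 ± 3.93 (n = 11) in PFC.

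The region effect on Trpm2 had an adjusted p of 0.002 (edgeR, Benjamini-Hochberg). Striatum rose above midbrain with a log2 fold change of 0.60 (SE 0.118, adjusted p = 9.37e-04), and in 12 of 12 mice. PFC exceeded midbrain by 0.31 (SE 0.120, p = 0.0151, adjusted p = 0.142, n = 11 and 12), and in 10 of 11 mice. Striatum exceeded PFC by 0.30 (SE 0.120, p = 0.0179, adjusted p = 0.289, n = 12 and 11), and in 10 of 11 mice, the exception being male mouse 1. Without mouse 1, PFC exceeded midbrain by 0.24, under the 1.2-fold minimum. Without mouse 8 or mouse 10, striatum exceeded PFC by 0.24 and 0.26, and neither passed. On mice 1 to 6 alone the region effect did not pass (adjusted p = 0.186), with 0.52 from midbrain to striatum, and on mice 7 to 12 alone it did (adjusted p = 0.0079), with 0.66.

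Transcripts of other brain cells were found in every region. Of their markers, 3 of 8 for astrocytes and 4 of 8 for neurons passed the region test (edgeR). For the oligodendrocyte lineage 1 of 8 passed, and for endothelial cells 0 of 8, beside 8.89% of all genes. The 8 astrocyte markers summed to 211 to 275 CPM in midbrain, 262 to 443 in striatum and 262 to 504 in PFC, and the 8 oligodendrocyte lineage markers to 295 to 490 CPM, 289 to 818 and 228 to 509. The 8 neuronal markers summed to 1.42 to 6.28 CPM in midbrain, 5.59 to 12.7 in striatum and 9.15 to 24.2 in PFC, and the 8 endothelial markers to 11.7 to 45.4, 24.7 to 65.9 and 18.5 to 44.0. Of these markers Tek was at 0 in 18 of 35 samples, the most of any. An index of the 4 lists, the mean of their log2 CPM centred over samples, was 0.509 ± 0.593 (SD, n = 12) in striatum, -0.117 ± 0.811 (n = 11) in PFC and -0.402 ± 0.477 (n = 12) in midbrain.

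With this index as a covariate the region effect on Trpm2 had an adjusted p of 0.0527 and did not pass, striatum exceeded midbrain by 0.49 (adjusted p = 0.0344), and striatum exceeded PFC by 0.22 (p = 0.101, n = 12 and 11). The region effects on Kcna3 and Kcnj2 passed with it (adjusted p = 4.26e-04 and 0.00363), and striatal Kcnj2 exceeded PFC by 0.32 (p = 0.0639, n = 12 and 11). The part of these cells in the differences was not tested further.

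**Figure D3:**
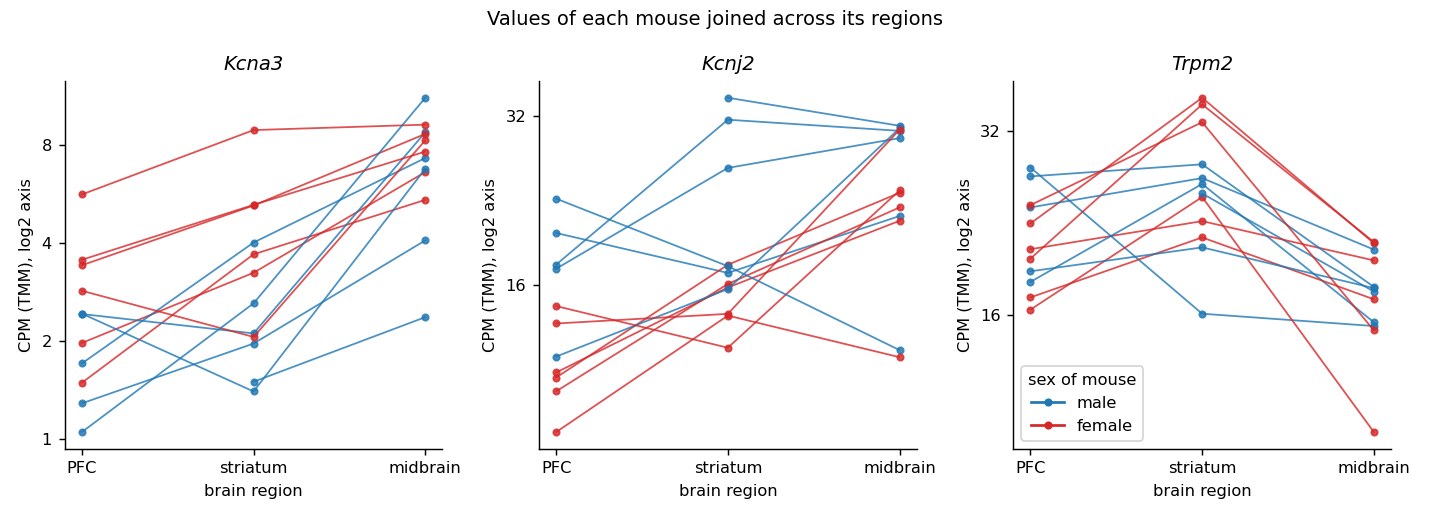
CPM of Kcna3, Kcnj2 and Trpm2 (log2 axis) in PFC, striatum and midbrain, each line joining the samples of 1 mouse, with males in blue and females in red and the PFC point of mouse 3 missing. Kcna3 rises into midbrain in every line, Trpm2 falls from striatum to midbrain in 12 of 12 mice, and Kcnj2 crosses in several.

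Kcnk13 (ENSMUSG00000045404), at chr12:99964499-100062682 on the plus strand, encodes the channel known as THIK-1, which carries the resting potassium conductance of microglia. It varied least of the members, with a coefficient of variation of 8.83% over 35 samples. Its CPM ran from 138 through a median of 166 to 187 in midbrain, from 139 through 164 to 191 in striatum and from 124 through 159 to 191 in PFC. The regions lay on top of each other. Means were 165 ± 14.6 CPM (SD, n = 12) in midbrain, 164.5 ± 12.99 (n = 12) in striatum and 160.4 ± 16.6 (n = 11) in PFC, and the region effect had an adjusted p of 0.907 (edgeR). The log2 fold changes were -0.04 for PFC against midbrain (SE 0.0560) and 0.03 for striatum against PFC (SE 0.0560). Between striatum and midbrain the fitted difference was under 0.01 in size, with an SE of 0.0547.

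Kcnk6 (ENSMUSG00000046410), at chr7:29221926-29232515 on the minus strand, encodes the potassium leak channel known as TWIK-2, which in macrophages carries potassium out of the cell when NLRP3 is activated by ATP. Its CPM ran from 126 through a median of 145 to 159.5 in midbrain, from 134 through 159 to 196 in striatum and from 84.7 through 145 to 179.5 in PFC. Striatum reached the highest values, and the PFC of male mouse 5 was the lowest sample. Means were 144 ± 9.62 CPM (SD, n = 12) in midbrain, 163 ± 20.9 (n = 12) in striatum and 144 ± 24.8 (n = 11) in PFC. The region effect did not pass (adjusted p = 0.116, edgeR), with striatum 0.18 above midbrain on the log2 scale (SE 0.0714) in 10 of 12 mice and 0.19 above PFC (SE 0.0732) in 7 of 11.

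Trpv2 (ENSMUSG00000018507), at chr11:62574486-62600515 on the plus strand, ran from 71.3 through a median of 92.0 to 113 CPM in midbrain, from 70.8 through 89.6 to 105 in striatum and from 73.04 through 87.3 to 103 in PFC. Its means were 91.7 ± 14.4 CPM (SD, n = 12), 87.6 ± 9.59 (n = 12) and 88.1 ± 8.67 (n = 11), within 0.07 of each other on the log2 scale in the fit (SE 0.0746 to 0.0763). The region effect had an adjusted p of 0.838 (edgeR), and the ranges coincided.

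Kcnn4 (ENSMUSG00000054342), at chr7:24370263-24386690 on the plus strand, ran from 1.72 through a median of 3.63 to 5.88 CPM in midbrain, from 2.39 through 3.64 to 5.56 in striatum and from 1.98 through 2.88 to 4.79 in PFC. PFC held the lowest mean, 2.95 ± 0.814 CPM (SD, n = 11), against 3.87 ± 1.31 (n = 12) in midbrain and 3.74 ± 0.878 (n = 12) in striatum. The difference of PFC from midbrain was -0.38 on the log2 scale (SE 0.167, adjusted p = 0.214, edgeR) and was seen in 9 of 11 mice, but the region effect did not pass (adjusted p = 0.265).

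**Figure D4:**
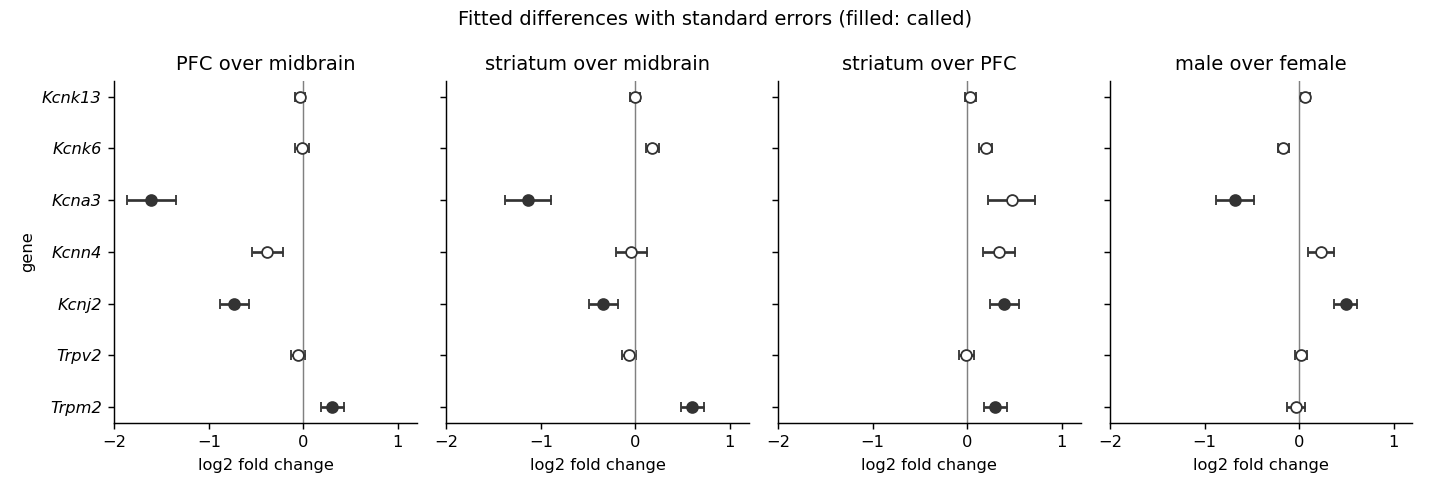
Log2 fold changes of the 7 members (points) with their standard errors (bars) for PFC over midbrain, striatum over midbrain, striatum over PFC and male over female, filled where the difference was called. The farthest point is Kcna3 in PFC over midbrain at -1.61, and the points of Kcnk13 and Trpv2 lie at 0 within about 1 standard error in the 3 regional panels.

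Sex was compared with region in the same model. At an unadjusted p under 0.05 and a fold change over 1.2, 2 of the 7 members differed between males and females, against 4.13% of all genes. Kcnj2 was higher in males (2.66% of genes were higher) and Kcna3 was lower in males (1.48% were lower). At an adjusted p under 0.05, 0 of the 7 members and 0.339% of all genes passed. DESeq2 called the same 2 members at an unadjusted p and gave Kcnj2 an adjusted p = 0.0138, which passed. That fit had no term for the mouse. With mouse as a random effect in limma-voom, Kcnj2 differed by 0.46 and did not pass (adjusted p = 0.537). With counts summed per mouse Kcnj2 differed by 0.53, and its adjusted p did not pass either. Both of these fits called Kcnj2 by the unadjusted rule. Samples of the same mouse are not independent, so the values per mouse were compared as well.

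Kcnj2 in midbrain averaged 25.6 ± 7.45 CPM (SD, n = 6) in males and 21.98 ± 5.91 (n = 6) in females. In striatum the means were 23.6 ± 8.13 (n = 6) and 15.0 ± 1.78 (n = 6), and in PFC 17.8 ± 3.99 (n = 5) and 11.6 ± 2.19 (n = 6). The ranges nearly coincided in midbrain, at 12.28 to 30.69 CPM in males and 11.93 to 30.21 in females. Males ranged higher in striatum and PFC, with overlap. The log2 fold change of male over female was 0.49 (SE 0.124, adjusted p = 0.0738, edgeR), and the mean log2 CPM per mouse was 4.46 ± 0.357 in 6 males and 3.95 ± 0.226 in 6 females (exact permutation test, two-sided, p = 0.00649). The mean of male mouse 3, the highest at 5.02, covers midbrain and striatum only. Without that mouse the difference was 0.40 (exact permutation test, two-sided, p = 0.0108).

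Within regions, the sex difference in Kcnj2 was 0.22 in midbrain (SE 0.210), 0.65 in striatum (SE 0.212, adjusted p = 1) and 0.62 in PFC (SE 0.221, adjusted p = 0.723), all from edgeR. The striatal and PFC differences passed the unadjusted rule, as 2.28% and 5.29% of all genes did. The interaction of sex and region did not pass (adjusted p = 1), so a difference between the regions in this sex effect was not shown.

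Kcna3 averaged 6.75 ± 3.18 CPM (SD, n = 6) in male and 7.66 ± 1.41 (n = 6) in female midbrain. In striatum the means were 2.27 ± 0.964 (n = 6) and 4.73 ± 2.38 (n = 6), and in PFC 1.78 ± 0.636 (n = 5) and 3.16 ± 1.46 (n = 6). Male mouse 3 was among the lowest, and female mouse 8 was the highest female in each region. The log2 fold change of male over female was -0.68 (SE 0.203, adjusted p = 0.18, edgeR), and the mean log2 CPM per mouse was 1.51 ± 0.385 in 6 males and 2.195 ± 0.492 in 6 females (exact permutation test, two-sided, p = 0.0303). Without male mouse 3, which has no PFC sample, the difference was -0.57 and did not pass (exact permutation test, two-sided, p = 0.0628).

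Within regions, Kcna3 in males differed from females by -0.18 in midbrain (SE 0.330), by -1.06 in striatum (SE 0.339, adjusted p = 1) and by -0.82 in PFC (SE 0.360, adjusted p = 0.755), all from edgeR. The last 2 passed the unadjusted rule. The PFC difference was lost when mouse 1, 8, 11 or 12 was left out (log2 fold changes of -0.73, -0.57, -0.68 and -0.79). With counts summed per mouse, the sex difference in Kcna3 was -0.50 and just missed the unadjusted threshold (adjusted p = 1). The interaction of sex and region did not pass (adjusted p = 1). In midbrain, where neither member passed, 4.84% of all genes did.

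The other members gave smaller sex differences. Kcnk6 had a log2 fold change of -0.17 for male over female (SE 0.0593, adjusted p = 0.317, edgeR), under the 1.2-fold minimum. Its unadjusted p was under 0.05, so by the unadjusted rule only the fold minimum kept Kcnk6 from a call. Per mouse, its mean log2 CPM differed by -0.17 between 6 males and 6 females (exact permutation test, two-sided, p = 0.0281). Without male mouse 3 that difference was -0.18 (exact permutation test, two-sided, p = 0.0325). Kcnn4 differed by 0.23 (SE 0.135), which did not pass, and passed when mouse 1, 5 or 8 was left out (0.31, 0.30 and 0.35). Kcnk13 differed by 0.07 (SE 0.0454), Trpv2 by 0.02 (SE 0.0618) and Trpm2 by -0.03 (SE 0.0975), and none passed at an unadjusted p under 0.05. For the interaction of sex and region, 0 of the 7 members had an unadjusted p under 0.05, or passed with DESeq2, against 2.98% of all genes.

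Transcripts whose log2 CPM varied most like a called member were found among 8602 genes with a mean of at least 8 CPM, by Pearson's r over the 35 samples. For Kcna3 they were Gusb, a lysosomal glucuronidase (r = 0.752), Eif4ebp1, which restrains translation (0.752), and Spp1, which encodes osteopontin (0.738). For Kcnj2 they were Samsn1, an adaptor of immune cells (0.773), the cytokine gene Il6 (0.703) and the protease gene Adamts16 (0.689). For Trpm2 they included Gaa, the lysosomal alpha-glucosidase (0.852), and Gcn1l1, which acts in the amino acid stress response (0.84). With the means of each region and sex removed, r was 0.593, 0.422 and 0.478 for Kcna3, 0.499, 0.475 and 0.525 for Kcnj2, and 0.77 and 0.712 for Trpm2. Several samples came from each mouse, so these values describe likeness and no p is given.

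Spp1 had the steepest regional profile of these, at 62.3 CPM in midbrain, 14.8 in striatum and 5.61 in PFC (adjusted p = 2.22e-06 for region, edgeR), in the order of Kcna3. Gaa had that of Trpm2, at 118, 157 and 133 CPM in midbrain, striatum and PFC (adjusted p = 0.00801). Both genes were picked for their r over these same samples, regional differences included. Their shared order and region p-values are therefore no independent evidence.

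Of 72 other genes for potassium channel pores, 46 were measured and 10 had a mean of at least 1 CPM. In the region test 6 of the 46 passed, 3 of them at that mean. Of all genes 8.89% passed, and 11.6% of all genes at that mean, shares that also apply to the lists below. Kcnma1, the large-conductance calcium-activated channel, averaged 4.78 ± 0.989 CPM (SD, n = 12) in midbrain, 3.15 ± 0.672 (n = 12) in striatum and 2.40 ± 0.944 (n = 11) in PFC (adjusted p = 5.81e-04, edgeR). Like Kcna3, it was lower in PFC and in striatum than in midbrain, with log2 fold changes of -1.01 and -0.61.

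The inward rectifiers Kcnj16 and Kcnj12 had other profiles than Kcnj2. Kcnj16, known from astrocytes, averaged 1.91 ± 0.803 CPM (SD, n = 12) in midbrain, 3.01 ± 1.04 (n = 12) in striatum and 4.29 ± 1.34 (n = 11) in PFC (adjusted p = 0.00291), and the astrocyte marker sums given above were also lower in midbrain. The part of astrocytes in its values was not tested. Kcnj12 averaged 4.25 ± 1.52, 3.77 ± 1.54 and 6.08 ± 1.74 CPM in the same order (adjusted p = 0.0335). The most abundant of the list in CPM was Kcnd1, an A-type voltage-gated channel, at 60.9 CPM, with an adjusted p of 0.978. Over the 10 genes with a mean of at least 1 CPM the median log2 fold change was 0.11 for PFC against midbrain and 0.20 for striatum against midbrain, beside 0.01 and -0.01 over all genes at that mean. Of 12 auxiliary subunits measured of 18 listed, 0 passed the region test (edgeR). An unadjusted p under 0.05 was found for 1 of the 12, and for 4625 of all 21236 genes. That 1 was Kcnip3, a calcium-binding partner of A-type channels, which was the only one with a mean of at least 1 CPM, at 23.02 CPM. Its log2 fold change was -0.51 for PFC and -0.28 for striatum against midbrain.

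Of 26 other TRP channel genes, 12 were measured, 6 had a mean of at least 1 CPM, and 1 passed the region test. Trpv4, a channel opened by warmth and swelling, averaged 7.33 ± 1.89 CPM (SD, n = 12) in midbrain, 5.91 ± 1.78 (n = 12) in striatum and 3.85 ± 1.96 (n = 11) in PFC (adjusted p = 5.44e-04, edgeR). It was lower in PFC than in midbrain (log2 fold change -1.02), and lower in males (-0.63, adjusted p = 0.0357). The fit for sex takes samples of the same mouse as independent, and no comparison per mouse is given for Trpv4. Mcoln1, the lysosomal TRP channel, was the most abundant at 54.7 CPM (adjusted p = 0.053). The median log2 fold change of the 6 genes with a mean of at least 1 CPM was 0.03 for PFC against midbrain and 0.02 for striatum against midbrain.

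Genes upstream and downstream of the channels were listed as well. Of 19 genes for calcium, ATP-gated, mechanical and proton channels, 18 were measured and 2 passed the region test. Piezo1, a channel opened by stretch, averaged 12.3 ± 2.31 CPM (SD, n = 12) in midbrain, 16.7 ± 4.61 (n = 12) in striatum and 11.6 ± 2.54 (n = 11) in PFC (adjusted p = 0.0152, edgeR). Tpcn1, a channel of endosomes and lysosomes, averaged 12.0 ± 1.84, 15.1 ± 2.18 and 13.6 ± 1.90 CPM (adjusted p = 0.019), so both had their highest mean in striatum. Saraf, which limits store-operated calcium entry, was the most abundant at 650.6 CPM (adjusted p = 0.179). Over the 17 genes with a mean of at least 1 CPM the median log2 fold change was 0.04 for PFC and 0.07 for striatum against midbrain.

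Of 8 genes of the NLRP3 inflammasome, all measured, 2 passed the region test, and both had their highest mean in midbrain. Casp1, the protease that cleaves interleukin-1 beta, averaged 51.8 ± 3.92 CPM (SD, n = 12) in midbrain, 38.8 ± 2.92 (n = 12) in striatum and 42.4 ± 3.81 (n = 11) in PFC (adjusted p = 1.63e-06, edgeR). Casp4, the receptor of intracellular lipopolysaccharide, averaged 32.8 ± 5.01, 24.3 ± 5.55 and 27.9 ± 5.38 CPM (adjusted p = 0.0167). Nek7, the partner that NLRP3 needs after potassium loss, was the most abundant at 286 CPM and did not pass (adjusted p = 0.596). The list's median log2 fold change was -0.15 for PFC and -0.25 for striatum against midbrain.

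Of 10 genes that make or break down ADP-ribose and NAD, the ligand side of Trpm2, all were measured, 7 had a mean of at least 1 CPM and 3 passed the region test, 1 of them at that mean. Nudt9, an ADP-ribose pyrophosphatase, averaged 53.4 ± 6.10 CPM (SD, n = 12) in midbrain, 63.1 ± 7.05 (n = 12) in striatum and 62.0 ± 7.08 (n = 11) in PFC (adjusted p = 0.0371, edgeR), a difference of 0.24 between striatum and midbrain on the log2 scale. Parp1, which consumes NAD to make poly(ADP-ribose), was the most abundant at 76.6 CPM (adjusted p = 0.272). Cd38, which makes ADP-ribose from NAD and is named here after its values were seen, averaged 1.86 ± 1.31 CPM (SD, n = 12) in midbrain, 0.367 ± 0.350 (n = 12) in striatum and 0.154 ± 0.231 (n = 11) in PFC (adjusted p = 0.00226, edgeR), below a mean of 1 CPM over all samples. Of the 10 genes, 2 were called lower and 0 higher in PFC than in midbrain, and likewise in striatum. Of all genes, 3.24% were called lower and 2.75% higher in PFC, and 2.98% and 3.5% in striatum. Over the 7 genes with a mean of at least 1 CPM the median log2 fold change was 0.01 for PFC against midbrain and -0.07 for striatum against midbrain.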

How the data were processed

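RNA was measured in 35 samples of sorted microglia. Per the labels, cDNA was made with Smart-Seq HT (15 cycles) and libraries with Nextera XT (12 cycles), and read as pairs of 50 bases. The deposited file holds the authors' raw read counts, as whole numbers for each Ensembl gene. The authors used FastQC, Trimmomatic and HISAT2 (build GRCm38) and removed genes of low expression. The counting tool, annotation release and use of strand are not given in the sources used here. Smart-Seq HT does not mark strand. Trpm2 shares 91 exon bases with 2 small nucleolar RNA genes.

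Groups came from the labelled region and sex, and 1 column named for the PFC but labelled striatum (mouse 3) was used as labelled. Counts were analysed with edgeR 4.0.16 in R 4.3.3 (TMM, robust quasi-likelihood). Region, pairs of regions and sex came from an additive model over all samples, and the sex difference in each region, with the interaction, from a model of the 6 groups of region by sex. Log2 CPM used a prior count of 2. Adjusted p-values cover all 21236 genes. Mean log2 CPM per mouse was compared between the sexes by exact permutation tests, also without mouse 3, a choice made after seeing the data. Alternatives used DESeq2 1.42.0 and limma 3.58.1, and plots Python 3.11.15 with matplotlib 3.10.9. The fits were run on simulated counts with 200 genes changed in PFC. Between PFC and midbrain, at an adjusted p under 0.05, they recovered 60 of 100 genes changed 1.5-fold. Of genes changed 2-fold they recovered 91 of 100, and 10 unchanged genes were called. The simulated samples of a mouse were independent, so the simulation does not cover the likeness of samples from 1 mouse.

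Same-numbered samples were taken as 1 animal, from the study's numbers of mice. Over 8623 genes, deviations from group means correlated at 0.347 on average in 34 same-mouse pairs (32 above 0.1) and at -0.0675 in 170 other pairs.

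The members, gene lists and alternatives were chosen with earlier results of these data known. Named genes are the members, the genes of each other list that passed the region test at a mean of at least 1 CPM with the most abundant gene of the list, and the 3 genes most like each called member, of which 1 is not reported here.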

Additional observations from a re-analysis of the deposited data

Results flagged for a closer look

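Of 42 sets of values examined (the 7 members in each region and sex with 5 or 6 samples), 1 held a sample far from the others. Kcnn4 in the striatum of female mouse 8 had 5.12 CPM, while the other 5 females had 2.90 to 3.56. Its gap to the nearest sample was 0.702 of the range of the group. Chance flags about 1 in 20 such sets, which is 2.1 of 42.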

How the results depend on the processing

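The region effect was called for the same 3 members under every alternative that used mice of both sets, except that Trpm2 was lost with the index of other brain cells. The number called between striatum and midbrain was 1 on mice 1 to 6 alone (Kcna3). Between striatum and PFC it was 0 with the index and with adjusted p-values, and 1 on mice 1 to 6 (Kcnj2) and on mice 7 to 12 (Trpm2). For sex it was 0 with adjusted p-values and 1 with counts summed per mouse (Kcnj2), and for sex within regions 0 with adjusted p-values. Leaving out each mouse in turn gave 3 to 3 members for region, 2 to 3 for each pair with midbrain, 1 to 3 for striatum against PFC, 2 to 3 for sex, 3 to 5 for sex within regions and 0 to 0 for the interaction. The replicate block added the call of Kcna3 between striatum and PFC (0.54) and changed no other call of region or of a pair. On mice 7 to 12 alone Kcnj2 lost its call for sex (0.43) and for sex in striatum (0.67) and PFC (0.49), and Kcnn4 gained one for sex (0.36). On mice 1 to 6 alone Kcna3 lost its PFC sex call (-0.30). With mouse as a random effect, the PFC sex difference of Kcna3 was lost (-0.84). The set of mice, a covariate chosen after seeing the data, added the same Kcna3 call (0.49), as did leaving out the striatum of mouse 3 (0.53). Of 958 alternative values of single members, 873 kept direction and call, 13 gained and 42 lost a call, and 30 changed sign, none of them a called value. Those were Kcnk13 between striatum and midbrain (0.0400 with the index, 0.00297 on mice 7 to 12, 4.92e-04 without the striatum of mouse 3, and -0.0381 to 0.0142 leaving out mice) and between striatum and PFC (-0.00393 on mice 1 to 6), Kcnk6 between PFC and midbrain (0.00713 on mice 7 to 12, -0.0633 to 0.0289 leaving out mice), Kcna3 between the sexes in midbrain (0.0123 on mice 7 to 12), Kcnn4 between striatum and midbrain (-0.116 to 0.0193), Trpv2 on mice 1 to 6 against midbrain (0.0519 in PFC and 0.0485 in striatum), between striatum and PFC (0.0011 on mice 7 to 12, 0.00178 with the set of mice, -0.0388 to 0.0254 leaving out mice) and between the sexes (-0.0246 to 0.0575), and Trpm2 between the sexes (0.112 on mice 1 to 6, -0.102 to 0.0260). The causes were not tested, and fits on 6 mice have fewer samples. Depth limits Kcna3 and Kcnn4 most, at 54 to 504 and 79 to 301 counts.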
